A study of Mus musculus with 4 samples.

Results

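The mitochondrial ribosomal protein genes were taken as every protein-coding gene in the deposited tables whose symbol starts with Mrpl or Mrps followed by a digit. There were 77 of them among 21981 genes, 48 named Mrpl and 29 named Mrps. By the roles known for their products, 50 encode proteins of the large subunit and 26 of the small subunit. Mrps18a and Mrps30 belong to the large subunit in spite of their names, and Mrps36 encodes a component of the 2-oxoglutarate dehydrogenase complex and not a ribosomal protein. Of the 76 subunit proteins, 48 have a bacterial counterpart and 28 are specific to mitochondria. Mrpl53 was not analysed here.

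The values came from bulk RNA sequencing of cerebral cortex microglia, the resident macrophages of the brain, of mouse embryos at embryonic day 16. Libraries cKO 2 and cKO 5 carry the genotype label Bach1 cKO, a conditional knockout that the series text writes with the suffix Cx3, and control 1 and control 6 carry the label Bach1 fl/fl, the floxed allele. All 4 samples are labelled untreated. The sources used here do not give the meaning of the suffix, the exons removed or the way the microglia were isolated. The series text speaks of triplicates, while 2 libraries a genotype were analysed here. Nothing in the labels states that libraries of a genotype come from different animals or litters, so each p-value below reflects the spread among these samples, which may be technical.

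The mitochondrial ribosome translates the few messenger RNAs of the mitochondrial genome, all of which encode subunits of the respiratory chain and of the ATP synthase. Its RNA core is encoded in mitochondria, while all of its proteins are encoded in the nucleus, made in the cytosol and imported. Many have a counterpart in bacterial ribosomes, and others were gained in the mitochondrial lineage. Bach1, the targeted gene, encodes a repressor that pairs with small Maf proteins at antioxidant response elements and is released by heme.

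Library totals lay between 17233115 and 19305078 reads, and 3 reads corresponded to 0.151 to 0.190 normalised CPM (counts scaled to a common library total, divided by the TMM factor of the library). This floor covers counting error only. Bach1 itself had 26.1 and 38.5 normalised CPM in cKO 2 and cKO 5, against 44.3 and 23.5 in control 1 and control 6 (log2 fold change -0.07 ± 0.47 SE). The groups overlapped, and reads over the whole gene do not show whether a part of it was deleted, so cKO and control stand for the labels of the libraries throughout. The 14 microglial markers examined were all detected. Their summed normalised CPM was 7598.3 in cKO 2 and 35326 in cKO 5, against 24322 in control 1 and 40523 in control 6. The 10 excitatory neuron markers summed to 3167.7 in cKO 2 and 321.2 in cKO 5, against 1036.8 in control 1 and 351.9 in control 6. The 7 endothelial markers summed to 2069.5 in cKO 2 and 343.2 in cKO 5, against 2951.7 in control 1 and 619.5 in control 6. The libraries thus held neural and vascular RNA in unequal shares, and its part in the results below was not tested. In bulk samples, fewer cells of a type and less RNA per cell cannot be told apart.

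Mitochondrial ribosomal protein genes were expressed at similar levels in libraries of both labels, and none of them passed the test. Of the 77 genes, 76 passed the filter on low counts. Mrps34, a small-subunit gene, did not, with 11 and 8 reads in cKO 2 and cKO 5 and 7 and 5 reads in control 1 and control 6. In edgeR's quasi-likelihood test with Benjamini-Hochberg adjustment over 15951 genes, 0 of 76 members had an adjusted p under 0.05 (0.0% of all genes tested), with 0.9997 as their lowest adjusted value. Before adjustment, 0 of 76 members had a p under 0.05, beside 49 genes or 0.307% of all genes tested. DESeq2 and limma-voom also called 0 genes after adjustment, and at an unadjusted p under 0.05 they called 74 and 37 genes, 0 of them members. With 2 libraries a label and a biological coefficient of variation of 0.652 across genes, the SE of a member's log2 fold change had a median of 0.37, so the test does not show that any gene was equal between labels.

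The log2 fold changes of the 76 tested members, cKO over control, had a median of 0.11, beside 0.03 for all genes tested, and ran from -0.64 for Mrps18b to 1.62 for Mrps23. They were above 0 for 54 members (71.1%) and below 0 for 22, beside 52.8% of all genes tested above 0. Without control 1 they were above 0 for 33 members and below 0 for 44, beside 55.7% of all genes above 0. The median turned on control 1: without that library it was -0.015 (0.09 for all genes), and without control 6 it was 0.25 (0.07 for all genes). The median log2 deviation of members from their mean over the libraries was 0.04 in cKO 2 and 0.09 in cKO 5, against -0.17 in control 1 and 0.08 in control 6. Control 1 was the lowest library for 38 of 76 members, while it was the lowest for 2579 of 15951 genes tested. Members together took 0.314% of reads in cKO 2 and 0.269% in cKO 5, against 0.257% in control 1 and 0.266% in control 6. Their summed normalised CPM averaged 2830.9 ± 127.8 in the cKO libraries and 2694.1 ± 297.6 in the control libraries (SD, n = 2 each).

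**Figure D1:**
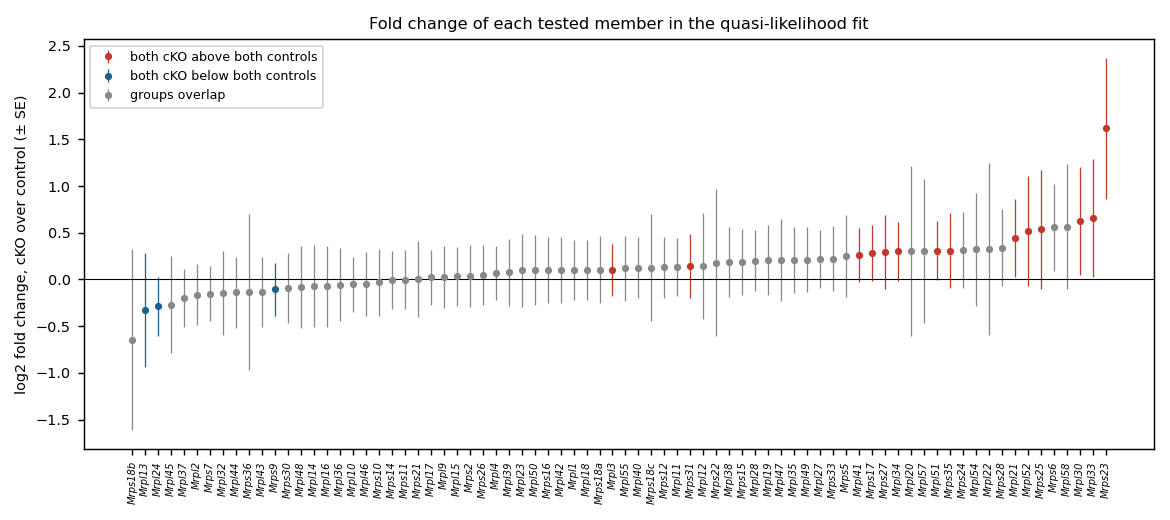
Log2 fold change of each of the 76 tested members, cKO over control, from the edgeR quasi-likelihood fit, ordered from lowest to highest. Points are estimates and bars are ± 1 SE. Colours mark the 14 genes with both cKO libraries above both controls and the 3 with both below. Most points lie within 1 SE of 0, and Mrps23 stands highest at 1.62.

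The promoters of the members were searched for 7 short motifs, since genes of this kind are known targets of a few widespread activators and BACH1 has a motif of its own. RefSeq promoter windows on GRCm38.p6, from 250 bases before to 50 bases after a transcription start, were matched by symbol for 68 of the 77 genes (74 windows), and each motif was searched on both strands. The ETS motif CCGGAAG, bound by the GA-binding protein among others, was found for 25 of the 68 genes (36.8%), beside 18.7% of 10493 tested protein-coding genes. The NRF1 motif, GCGC and TGCGC with any 1 base between them, was found for 13 genes (19.1% beside 10.9%) and the YY1 motif AAGATGGC for 12 (17.6% beside 4.97%). At least 1 of these 3 motifs was found for 42 genes (61.8% beside 30.4%). The CCAAT box was found for 26 genes (38.2% beside 42.9%), the E-box CACGTG for 5 (7.35% beside 11.4%) and the estrogen-related receptor motif TCAAGGTCA for 0 (0.305% of tested genes). The core of the antioxidant response element, TGAC and GCA with any 3 bases between them, was found for 4 genes (5.88% beside 3.14%). No match of one motif overlapped a match of another in these windows. Median GC content was 58.5% in members' windows and 60.3% in those of tested genes. A match is a string of letters and does not show that a factor binds.

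The windows of 7 genes are given 5′ to 3′ on the strand of the gene, with matches to the ETS, NRF1, YY1 and antioxidant response element motifs in capitals. Mrps23 is shown because its fold change was the largest, and Mrpl30 as a gene higher in both cKO libraries. Mrps18a is shown for the highest normalised CPM per kilobase of the longest principal transcript. Mrpl16, Mrpl22, Mrps15 and Mrps18c are the 4 genes with the antioxidant response element core.
Mrps23 (chr11:88204138-88204437, plus strand): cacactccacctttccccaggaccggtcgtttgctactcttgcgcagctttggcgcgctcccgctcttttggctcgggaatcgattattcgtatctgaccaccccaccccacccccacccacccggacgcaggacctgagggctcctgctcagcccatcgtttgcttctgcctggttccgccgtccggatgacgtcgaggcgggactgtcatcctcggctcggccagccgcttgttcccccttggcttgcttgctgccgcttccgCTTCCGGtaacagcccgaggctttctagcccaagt
Mrpl30 (chr1:37890227-37890526, plus strand): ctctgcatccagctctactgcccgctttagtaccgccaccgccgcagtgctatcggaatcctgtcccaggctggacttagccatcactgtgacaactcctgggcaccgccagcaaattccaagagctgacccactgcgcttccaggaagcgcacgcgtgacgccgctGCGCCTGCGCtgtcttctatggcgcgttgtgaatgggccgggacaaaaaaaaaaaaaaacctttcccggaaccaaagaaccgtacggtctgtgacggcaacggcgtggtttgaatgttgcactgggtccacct
Mrps18a (chr17:46110754-46111053, plus strand): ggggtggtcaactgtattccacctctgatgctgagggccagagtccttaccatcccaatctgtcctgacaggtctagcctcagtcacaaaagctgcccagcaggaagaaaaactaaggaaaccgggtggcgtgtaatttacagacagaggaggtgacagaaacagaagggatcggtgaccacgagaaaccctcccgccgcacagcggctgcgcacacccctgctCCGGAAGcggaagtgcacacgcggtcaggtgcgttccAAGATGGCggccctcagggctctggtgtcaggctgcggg
Mrpl16 (chr19:11770165-11770464, plus strand): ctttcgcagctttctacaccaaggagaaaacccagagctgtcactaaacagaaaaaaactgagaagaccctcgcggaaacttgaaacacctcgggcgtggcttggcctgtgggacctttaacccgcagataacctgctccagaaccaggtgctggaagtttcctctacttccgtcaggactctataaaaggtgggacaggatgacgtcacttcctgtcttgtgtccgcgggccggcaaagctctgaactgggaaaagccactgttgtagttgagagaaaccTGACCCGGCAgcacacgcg
Mrpl22 (chr11:58171414-58171713, plus strand): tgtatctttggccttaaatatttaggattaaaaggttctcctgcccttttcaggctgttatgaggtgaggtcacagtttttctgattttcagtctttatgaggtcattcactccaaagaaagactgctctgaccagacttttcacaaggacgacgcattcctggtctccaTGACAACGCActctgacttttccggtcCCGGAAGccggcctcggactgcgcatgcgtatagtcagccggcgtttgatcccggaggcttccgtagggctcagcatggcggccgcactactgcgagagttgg
Mrps15 (chr4:126046678-126046977, plus strand): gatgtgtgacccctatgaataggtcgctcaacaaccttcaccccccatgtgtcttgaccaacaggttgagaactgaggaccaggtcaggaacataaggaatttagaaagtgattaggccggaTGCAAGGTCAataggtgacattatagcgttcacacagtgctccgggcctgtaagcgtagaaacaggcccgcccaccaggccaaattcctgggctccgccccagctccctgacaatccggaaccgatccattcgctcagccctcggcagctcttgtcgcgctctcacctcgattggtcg
Mrps18c (chr5:100798509-100798808, plus strand): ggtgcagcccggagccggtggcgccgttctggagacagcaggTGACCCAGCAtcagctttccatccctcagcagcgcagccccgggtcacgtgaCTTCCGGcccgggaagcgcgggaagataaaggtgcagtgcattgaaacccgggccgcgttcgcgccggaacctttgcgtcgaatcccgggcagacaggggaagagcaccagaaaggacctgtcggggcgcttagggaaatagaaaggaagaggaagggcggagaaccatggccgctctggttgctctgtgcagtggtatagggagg
Mrps23 and Mrpl30 each held a single capitalised match, ETS letters on the other strand in Mrps23 and NRF1 letters in Mrpl30. In Mrps18a, ETS letters stood 26 bases before the start and YY1 letters 12 bases after it. The antioxidant response element core began at base 32 after the start in Mrpl16, and at bases 80, 128 and 208 before it in Mrpl22, Mrps15 and Mrps18c. The values of these 4 genes did not separate the labels. Mrpl16 had 43.5 and 73.5 normalised CPM in cKO 2 and cKO 5, against 48.7 and 74.3 in control 1 and control 6, so that its 2 lower libraries were of different labels. Mrps15, of the small subunit, had 77.0 and 110.2 normalised CPM in cKO 2 and cKO 5, against 71.4 and 92.6 in control 1 and control 6.

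Mrps23 encodes a protein of the small subunit with no bacterial counterpart (ENSMUSG00000023723, chr11:88204388-88211507, plus strand, GRCm38). It had 67 and 113 reads in cKO 2 and cKO 5, against 24 and 29 reads in control 1 and control 6. That is 3.37 and 6.37 normalised CPM in the cKO libraries, against 1.33 and 1.83 in the controls, or 4.87 ± 2.12 against 1.58 ± 0.36 (SD, n = 2 each). Both cKO libraries lay above both controls. On the log2 scale the difference was 1.62 ± 0.75 (SE). Its unadjusted p of 0.0927 was the smallest among members, and the adjusted p was 0.9997 (edgeR). It was 1.08 without cKO 5 and 2.03 without cKO 2, and 1.86 and 1.40 without control 6 and control 1. None of its exons overlap another gene's, and no stretch of its transcript closely matches an annotated transcript of another gene. Sequence outside annotated transcripts was not searched.

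Next by p among members above 0 came Mrps6, Mrpl30, Mrpl21 and Mrpl33, at an unadjusted p of 0.29 to 0.35 (edgeR). Mrpl30 and Mrpl33 encode large-subunit proteins with bacterial counterparts. Mrpl30 had 10.7 and 10.8 normalised CPM in cKO 2 and cKO 5, against 9.25 and 4.68 in control 1 and control 6. The controls differed from each other by more than control 1 did from the cKO libraries, and the log2 fold change of 0.63 ± 0.58 was 0.22 without control 6 and 1.19 without control 1. Mrpl33 had 4.23 and 5.35 normalised CPM in cKO 2 and cKO 5, against 2.77 and 3.29 in control 1 and control 6 (0.66 ± 0.63, unadjusted p = 0.35). Its groups did not overlap, but the counts were low. It had 84 and 95 reads in the cKO libraries against 50 and 52 in the controls. Transcripts of other genes closely match 37.4% of the Mrpl33 transcript, which may be its exon overlap with Gm43809. Mrpl21, another large-subunit gene, had 15.8 and 14.3 normalised CPM in cKO 2 and cKO 5, against 10.4 and 11.8 in control 1 and control 6 (0.44 ± 0.42). Here too both cKO libraries were higher, and 59.9% of the transcript closely matches transcripts of other genes, so its counts are uncertain. Mrps6, of the small subunit, had 23.6 and 15.3 normalised CPM in cKO 2 and cKO 5, against 15.6 and 10.9 in control 1 and control 6 (0.56 ± 0.47). Its groups overlapped, since cKO 5 lay just below control 1, and the value was 0.24 without cKO 2 and 0.32 without control 6. Transcripts of other genes closely match 36.2% of the Mrps6 transcript, and 19.9% of its exon length overlaps Gm49711 and Slc5a3. These shares may cover the same bases.

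Among the genes below 0, Mrpl24 and Mrpl13 encode large-subunit proteins with bacterial counterparts, and both cKO libraries lay below both controls. Mrpl24 had 33.7 and 41.9 normalised CPM in cKO 2 and cKO 5, against 43.1 and 49.1 in control 1 and control 6. The log2 fold change of -0.29 ± 0.32 was -0.11 without cKO 2. Its counts are uncertain, since 26.3% of its exon length overlaps Rrnad1. Transcripts of other genes closely match 43.8% of the Mrpl24 transcript, in a search that did not leave out overlapping genes such as Rrnad1. Mrpl13 had 4.43 and 3.32 normalised CPM in cKO 2 and cKO 5, against 4.98 and 4.74 in control 1 and control 6 (-0.33 ± 0.61), and it was -0.15 without cKO 5. Transcripts of other genes closely match 27.0% of the Mrpl13 transcript, which may be its exon overlap with Mtbp. Mrpl37, a mitochondrion-specific large-subunit gene, had 56.4 and 57.1 normalised CPM in cKO 2 and cKO 5, against 57.0 and 73.4 in control 1 and control 6 (-0.20 ± 0.31). Control 6 alone stood apart. Mrpl45 encodes the protein that holds the large subunit at the inner membrane near the exit tunnel. It had 8.81 and 6.76 normalised CPM in cKO 2 and cKO 5, against 7.92 and 10.9 in control 1 and control 6 (-0.27 ± 0.52), and the groups overlapped.

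**Figure D2:**
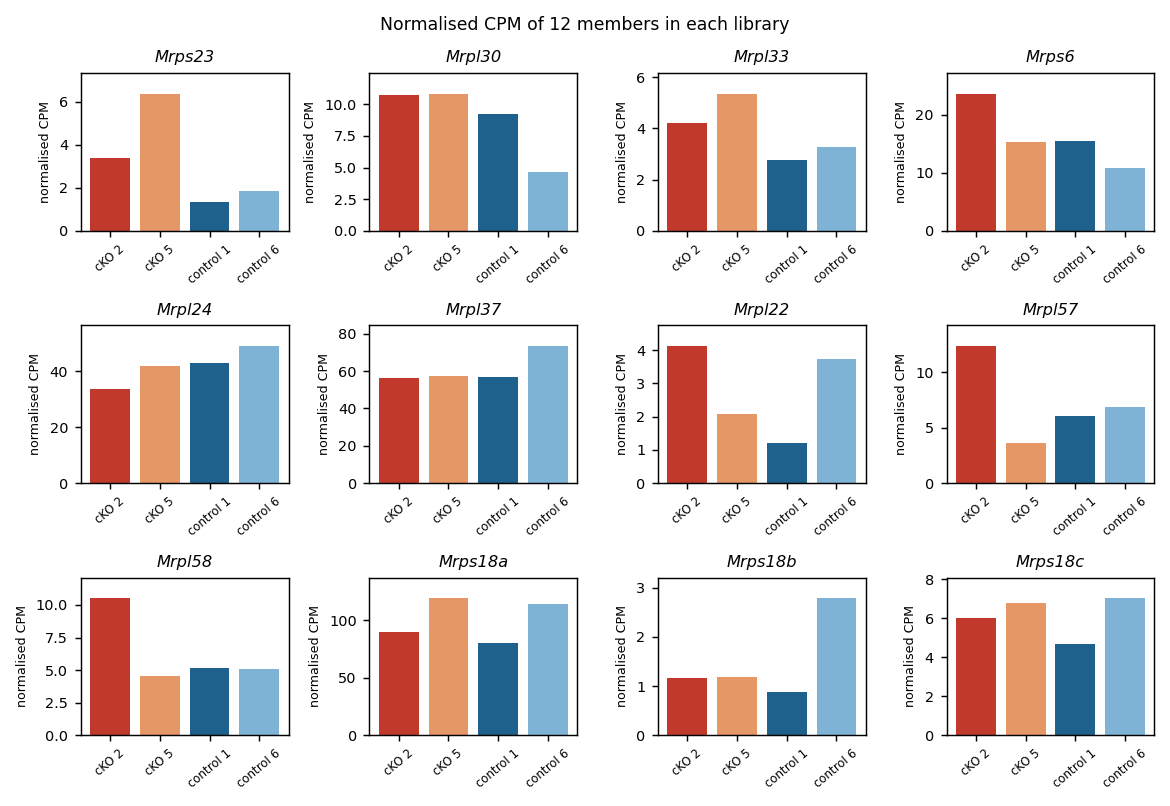
Normalised CPM of 12 members in each of the 4 libraries, 1 panel a gene, with bars from 0 and no replicate error since each bar is 1 library. Mrps23 is higher in both cKO libraries, whereas Mrpl22, Mrpl57, Mrpl58 and Mrps18b each have 1 or 2 libraries that set their difference.

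Counted over the whole set, both cKO libraries lay above both controls for 14 of 76 members (18.4%), beside 8.33% of all genes tested. Both lay below for 3 members (3.95%), beside 7.64% of all genes tested. The shares were 30.0% above and 3.75% below for 80 nuclear respiratory chain genes, and 4.94% and 1.23% for 81 cytosolic ribosomal protein genes. The 14 were Mrpl3, Mrpl21, Mrpl30, Mrpl33, Mrpl34, Mrpl41, Mrpl51, Mrpl52, Mrps17, Mrps23, Mrps25, Mrps27, Mrps31 and Mrps35, and the 3 were Mrpl13, Mrpl24 and Mrps9. These counts depended on control 1. When it was left out, 17 members lay above the remaining control in both cKO libraries, beside 23.5% of all genes, and 22 below, beside 24.8%. Without control 6 the counts were 43 above, beside 20.2% of all genes, and 5 below, beside 21.3%. Without cKO 2 they were 35 above and 15 below, beside 30.6% and 34.8% of all genes, and without cKO 5 they were 31 above and 18 below, beside 39.3% and 36.3%. Fewer libraries separate more easily by construction, so counts from 3 libraries are read against their own shares. Scaling by library totals alone gave 25 above and 1 below, beside 9.31% and 6.57% of all genes.

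The 14 genes above both controls had log2 fold changes from 0.10 for Mrpl3 to 1.62 for Mrps23. Mrpl3, a large-subunit gene near the peptidyl transferase centre, had 78.2 and 77.6 normalised CPM in cKO 2 and cKO 5, against 71.6 and 73.4 in control 1 and control 6. The groups did not overlap, yet the log2 fold change was 0.10 ± 0.28 (SE). Mrps31, of the small subunit, had 22.2 and 22.4 normalised CPM in cKO 2 and cKO 5, against 19.7 and 20.7 in control 1 and control 6 (0.15 ± 0.34). Mrps25, also of the small subunit, had 4.08 and 4.34 normalised CPM in cKO 2 and cKO 5, against 2.77 and 3.04 in control 1 and control 6 (0.53 ± 0.63). Its counts are uncertain, since 69.8% of its exon length overlaps other genes and the strand of the reads is not given.

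By subunit, the median log2 fold change was 0.10 for the 50 large-subunit genes and 0.15 for the 25 tested small-subunit genes. In 35 of the 50 and in 19 of the 25 the value was above 0, beside 52.8% of all genes tested. The 48 genes with a bacterial counterpart had a median of 0.10, with 6 genes (12.5%) above and 3 (6.25%) below both controls in both cKO libraries. The 27 tested mitochondrion-specific genes had a median of 0.18, with 8 (29.6%) above and 0 below. Over all genes tested these shares were 8.33% above and 7.64% below. Differences between these classes were not tested. The summed normalised CPM of large-subunit genes over that of small-subunit genes was 2.09 ± 0.15 in the cKO libraries and 2.19 ± 0.07 in the control libraries (SD, n = 2 each), and the ratio overlapped between labels.

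The members varied little between libraries. The highest library exceeded the lowest by a median factor of 1.45 over members, on the scale of normalised CPM + 0.5, beside 2.19 over all genes tested. Restricted to genes with a mean of at least 10 CPM, the factor was 1.39 for 59 members and 1.80 for 9518 genes. Among related sets it was 1.40 for 80 nuclear genes of the respiratory chain and 1.79 for 81 cytosolic ribosomal protein genes. The markers of cell types spread further, with median factors of 4.96 for microglia, 8.72 for excitatory neurons and 9.27 for endothelium. Only 8 of 76 members (10.5%) ranged over more than 1 on the log2 scale, beside 55.3% of all genes. The smallest ranges were those of Mrpl3 (a factor of 1.09), Mrpl17 (1.14) and Mrps31 (1.14). Mrpl17, of the large subunit, had 48.7 and 43.6 normalised CPM in cKO 2 and cKO 5, against 42.8 and 48.1 in control 1 and control 6.

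**Figure D3:**
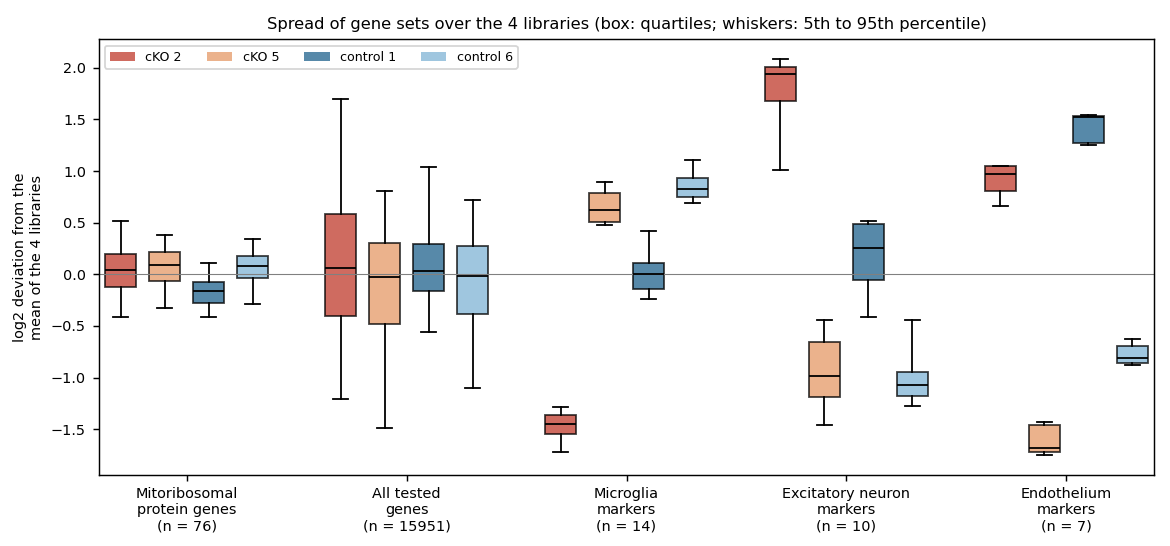
Log2 deviation of each gene from its mean over the 4 libraries, on log2(normalised CPM + 0.5), for 76 tested members, 15951 tested genes and 3 sets of cell type markers. Boxes are quartiles with the median and whiskers run from the 5th to the 95th percentile of genes. Members stay near 0 in all libraries, with the lowest median of -0.17 in control 1, while marker sets move by more than 1 between libraries.

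The members were set beside the cell type markers library by library. Microglial markers were lowest in cKO 2 for 14 of 14 genes, with a median log2 deviation of -1.45 there, and excitatory neuron markers were highest in cKO 2 for 10 of 10, with a median of 1.94. Members had a median deviation of 0.04 in that library, where 24 of 76 were highest and 17 lowest. The members' medians in cKO 2, cKO 5 and control 6 lay close together, at 0.04, 0.09 and 0.08. Only control 1 stood apart, at -0.17, so the members give no clear order of the other libraries. Endothelial markers had median deviations of 0.97 in cKO 2 and -1.69 in cKO 5, against 1.52 in control 1 and -0.81 in control 6, and pericyte markers 1.17 in cKO 2 and -1.92 in cKO 5, against 1.52 in control 1 and -0.64 in control 6. Control 1, where the members' median was lowest, was the highest library for 6 of 7 endothelial, 5 of 5 pericyte and 6 of 6 erythroid markers. The part of these cells in the members' levels was not tested. The median absolute log2 difference over members was 0.17 between cKO 5 and control 6, 0.32 between cKO 5 and control 1, 0.26 between cKO 2 and control 1 and 0.26 between cKO 2 and control 6. It was 0.31 between the cKO libraries and 0.27 between the control libraries, so pairs of the same label differed by about as much as pairs of different labels. Over all genes tested these 6 values were 0.29, 0.51, 0.47, 0.76, 0.84 and 0.47 in the same order.

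**Figure D4:**
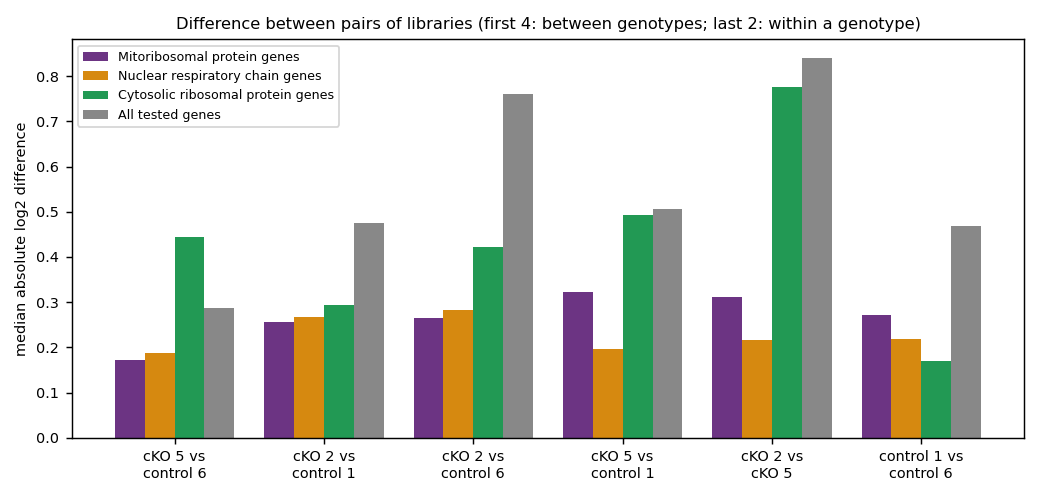
Median absolute log2 difference in normalised CPM + 0.5 for each pair of libraries, over mitochondrial ribosomal protein genes, nuclear respiratory chain genes, cytosolic ribosomal protein genes and all tested genes. Bars start at 0. For members, the pairs within a label (0.31 and 0.27) lie within the range of the pairs between labels (0.17 to 0.32).

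Members were set beside related gene sets from library to library. Nuclear respiratory chain genes had median deviations of 0.03 in cKO 2 and 0.08 in cKO 5, against -0.11 in control 1 and 0.02 in control 6, and control 1 was the lowest library for 32 of 80. Cytosolic ribosomal protein genes had -0.35 in cKO 2 and 0.42 in cKO 5, against -0.03 in control 1 and 0.00 in control 6, and cKO 2 was the lowest for 61 of 81. The median log2 fold changes of the 3 sets, cKO over control, were 0.11 for members, 0.10 for the respiratory chain and 0.11 for cytosolic ribosomal proteins.

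The wide-ranging members owed their ranges to different libraries. Mrpl57, a small mitochondrion-specific protein of the large subunit, had 12.4 and 3.66 normalised CPM in cKO 2 and cKO 5, against 6.09 and 6.90 in control 1 and control 6. The cKO libraries were the highest and the lowest, and the log2 fold change of 0.31 ± 0.77 turned to -0.80 without cKO 2. Mrpl58 encodes a peptidyl-tRNA hydrolase that rescues stalled mitochondrial ribosomes and is also a large-subunit protein. It had 10.5 and 4.56 normalised CPM in cKO 2 and cKO 5, against 5.15 and 5.06 in control 1 and control 6, so that cKO 2 alone was high (0.56 ± 0.67, and -0.13 without cKO 2). Mrpl22, which lines the exit tunnel, had 4.13 and 2.08 normalised CPM in cKO 2 and cKO 5, against 1.22 and 3.73 in control 1 and control 6 (0.33 ± 0.92, with -0.29 without control 1 and -0.22 without cKO 2). Each label held a high and a low library, and 86.0% of the Mrpl22 transcript has a near-identical copy elsewhere.

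The 3 paralogs of the bacterial S18 family differed in counted level more than in pattern. Mrps18a, which sits in the large subunit, had 89.5 and 119.0 normalised CPM in cKO 2 and cKO 5, against 79.9 and 114.3 in control 1 and control 6. Mrps18c, of the small subunit, had 5.99 and 6.76 normalised CPM in cKO 2 and cKO 5, against 4.65 and 7.02 in control 1 and control 6. In both genes control 1 was the lowest, and the groups overlapped (log2 fold changes 0.10 ± 0.36 and 0.13 ± 0.57). Mrps18b, of the small subunit, had 1.16 and 1.18 normalised CPM in cKO 2 and cKO 5, against 0.89 and 2.78 in control 1 and control 6. Control 6 alone was high, from 44 reads beside 16 to 23 in the other libraries, and the log2 fold change of -0.64 ± 0.97 was 0.39 without it. Transcripts of other genes closely match 65.3% of the Mrps18b transcript, and 30.5% of its exon length overlaps Gm16279. These shares may in part cover the same bases. For Mrps18c, 23.2% of exon length overlaps Gm43511, and transcripts of other genes closely match 27.3% of its transcript. Mrps18a had no such overlap or match, and the part of these shares in the levels was not tested.

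Members with known special roles were also spread across labels. Mrpl12, the stalk protein that recruits translation factors and also binds mitochondrial RNA polymerase, had 6.24 and 6.59 normalised CPM in cKO 2 and cKO 5, against 4.71 and 6.90 in control 1 and control 6 (0.15 ± 0.57). Mrps12, the protein of the decoding centre, had 40.9 and 31.7 normalised CPM in cKO 2 and cKO 5, against 32.3 and 34.1 in control 1 and control 6 (0.13 ± 0.33). The cKO libraries held its highest and its lowest value. Mrps30 had 17.8 and 15.7 normalised CPM in cKO 2 and cKO 5, against 18.3 and 17.5 in control 1 and control 6 (-0.10 ± 0.37). Mrps36 had 1.16 and 2.48 normalised CPM in cKO 2 and cKO 5, against 1.77 and 2.21 in control 1 and control 6 (-0.13 ± 0.84), and 44.1% of its transcript has near-identical copies.

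Levels between genes were compared per kilobase of the longest principal transcript (RPKM, from normalised CPM). On this scale the highest members were Mrps18a at a mean of 113.9 RPKM over the 4 libraries, Mrpl36 at 100.3 and Mrps15 at 93.7. Mrpl36 is a large-subunit gene and Mrps15 a small-subunit gene. Mrpl36 had 78.1 and 118.8 RPKM in cKO 2 and cKO 5, against 82.7 and 121.8 in control 1 and control 6, and Mrps18a had 101.3 and 134.7 RPKM against 90.3 and 129.3. Mrps15 had 82.2 and 117.7 RPKM in cKO 2 and cKO 5, against 76.3 and 98.8 in control 1 and control 6. Mrps18a was above both other genes in each of the 4 libraries, while Mrpl36 was above Mrps15 in all but cKO 2. The lowest were Mrps34 at 0.47 RPKM, Mrps25 at 0.59 and Mrps18b at 1.39. Overlap with other genes' exons covered 77.8% of Mrps34, 69.8% of Mrps25 and 30.5% of Mrps18b, and reads in such stretches may have been left uncounted or shared. The order of the 77 genes was close to the same in each library, with Spearman's rho of 0.96 to 0.98 between pairs of libraries. This is a correlation across genes, which are not replicates, and the genes keep their length and mappability in every library. With the union of all exons as length, rho with these levels was 0.90, but Mrps18a was no longer the highest. It had 27.3 RPKM on that length, below Mrpl36 at 79.8 and Mrps15 at 51.9.

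**Figure D5:**
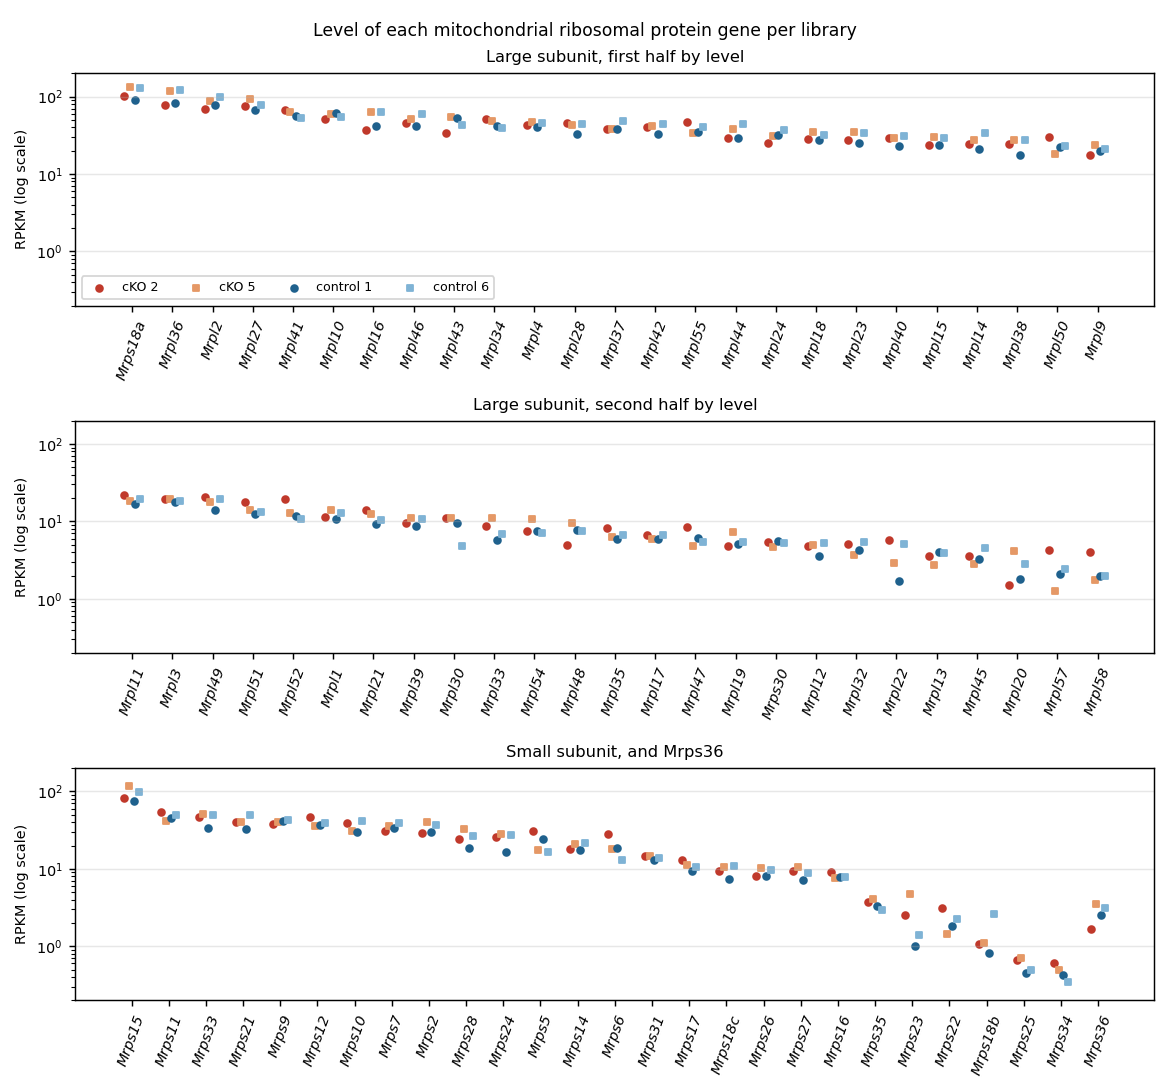
RPKM of all 77 genes in each library on a log axis, with large-subunit genes in 2 panels and small-subunit genes with Mrps36 in the third, ordered by mean level. Each point is 1 library. The 4 libraries lie close together for most genes, while levels between genes run from 0.47 RPKM for Mrps34 to 113.9 for Mrps18a.

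In the genome the members lay on 17 chromosomes, with 11 genes on chromosome 11 and 8 on chromosome 17. A gene on the opposite strand started within 1000 bp, head to head, for 33 of 77 members (42.9%), beside 15.1% of tested protein-coding genes. Starts here were the outermost annotated ends of genes, which can differ from the RefSeq starts of the promoter windows. Mrps11 and Mrpl46, on chromosome 7, are such a pair of members, with annotated starts 412 bp apart and overlapping each other. Mrps11 had 56.6 and 43.5 normalised CPM in cKO 2 and cKO 5, against 47.9 and 52.4 in control 1 and control 6. Mrpl46 had 51.3 and 59.0 normalised CPM in cKO 2 and cKO 5, against 46.5 and 67.6 in control 1 and control 6, so cKO 2 was the highest library for Mrps11 but not for Mrpl46. Exons of 32 members (41.6%) overlapped those of another gene, beside 35.8% of tested protein-coding genes. Of the 77 members, 50 had under 20% of exon length in such overlaps and under 20% of the transcript closely matching other genes' transcripts. These 50 had a median log2 fold change of 0.10, with 8 of the 50 above and 1 below, beside 8.33% and 7.64% of all genes tested.

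The authors' deposited tables compare 1 cKO library with 1 control library each, and their calls have no replicate. In the authors' deposited table of cKO 2 against control 1, 4 members were called higher and 0 lower, beside 20.0% and 11.6% of all genes in that table. In the authors' deposited table of cKO 2 against control 6, 7 were called higher and 0 lower, beside 33.7% and 13.4%. In the authors' deposited table of cKO 5 against control 1, 2 were called higher and 0 lower, beside 8.79% and 26.0%. In the authors' deposited table of cKO 5 against control 6, 2 were called higher and 1 lower, beside 9.23% and 11.4%. Mrps23 was called higher in each, with log2 values of 1.49, 1.20, 2.09 and 1.80 in the authors' deposited tables in that order. The tables share libraries, so these are not separate observations. Mrpl30 was called higher in the authors' deposited tables against control 6 only, at 1.52 for cKO 2 and 1.21 for cKO 5, and Mrps18b was called lower for cKO 5 against control 6, at -1.23.

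The lists for the rest of the mitochondrial gene expression pathway also held no gene past the test. Of 5 mitoribosomal protein genes with other symbols, 0 passed the test, and their median log2 fold change was 0.11. Chchd1, a small-subunit protein, had 37.6 and 28.2 normalised CPM in cKO 2 and cKO 5, against 22.0 and 29.2 in control 1 and control 6 (0.36 ± 0.37). Ptcd3, also of the small subunit, had 74.7 and 69.5 normalised CPM in cKO 2 and cKO 5, against 58.1 and 70.7 in control 1 and control 6 (0.16 ± 0.30). Both overlapped between labels. Of 25 assembly factor genes 0 passed, with a median of 0.11, 17 above 0 and 8 below. Noa1, a GTPase needed to build the small subunit, had 37.8 and 36.8 normalised CPM in cKO 2 and cKO 5, against 29.7 and 24.4 in control 1 and control 6 (0.46 ± 0.32). Mterf4, which guides a methyltransferase to the large subunit, had 26.3 and 20.9 normalised CPM in cKO 2 and cKO 5, against 16.6 and 17.5 in control 1 and control 6 (0.47 ± 0.37). In both, the cKO libraries lay above the controls without passing the test. They are shown because they had the smallest p of the 25. Of the 25, 5 lay above and 3 below both controls, beside 8.33% and 7.64% of all genes tested.

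Of 14 tested translation factor genes and 20 aminoacyl-tRNA synthesis genes 0 passed, with medians of 0.02 and 0.03. Guf1, an elongation factor of the LepA family, had 18.2 and 18.2 normalised CPM in cKO 2 and cKO 5, against 12.1 and 12.8 in control 1 and control 6 (0.55 ± 0.39). Mtrf1, a release factor, had 8.76 and 7.94 normalised CPM in cKO 2 and cKO 5, against 9.14 and 14.6 in control 1 and control 6 (-0.51 ± 0.51). The groups did not overlap in either gene, in opposite directions. These genes had the smallest p of the 14. Of the 14, 3 lay above and 1 below both controls, beside 8.33% and 7.64% of all genes tested. Among the synthetases, Ears2, which charges the glutamate tRNA, had 7.75 and 8.90 normalised CPM in cKO 2 and cKO 5, against 13.4 and 10.5 in control 1 and control 6 (-0.52 ± 0.47), so both cKO libraries lay below both controls.

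Of 12 tested genes for copying and transcribing mitochondrial DNA 0 passed, with a median of 0.12. Polrmt, the mitochondrial RNA polymerase, had 44.0 and 44.8 normalised CPM in cKO 2 and cKO 5, against 37.3 and 26.4 in control 1 and control 6 (0.48 ± 0.34). Ssbp1, which coats single-stranded mitochondrial DNA, had 83.6 and 72.5 normalised CPM in cKO 2 and cKO 5, against 82.2 and 111.4 in control 1 and control 6 (-0.31 ± 0.32). Polrmt was higher in both cKO libraries, whereas the Ssbp1 groups overlapped. Of 13 tested mitochondrially encoded genes 0 passed, with 4 above 0, 9 below and a median of -0.08. The gene mt-Atp6, for a subunit of the ATP synthase, had 66.1 and 72.2 normalised CPM in cKO 2 and cKO 5, against 58.4 and 66.5 in control 1 and control 6 (0.15 ± 0.29). The gene mt-Co3, for a cytochrome oxidase subunit, had 2.22 and 2.82 normalised CPM in cKO 2 and cKO 5, against 2.16 and 1.71 in control 1 and control 6 (0.38 ± 0.73). Both genes lay far below the median of 243.8 normalised CPM over the 13 tested genes. Close matches elsewhere were searched for members only, so the levels of these 2 genes are uncertain. The large ribosomal RNA of the mitochondrion, mt-Rnr2, had 1031 and 2200 normalised CPM in cKO 2 and cKO 5, against 2251.7 and 1233.3 in control 1 and control 6. Each label held a high and a low library, and the labels name total RNA without saying how ribosomal RNA was removed.

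Of 10 genes for regulators of nuclear mitochondrial genes 0 passed, with a median of -0.02. Gabpa, the DNA-binding subunit of the GA-binding protein, had 70.6 and 51.2 normalised CPM in cKO 2 and cKO 5, against 68.5 and 55.1 in control 1 and control 6. Nrf1 had 70.5 and 50.1 normalised CPM in cKO 2 and cKO 5, against 59.2 and 58.8 in control 1 and control 6. Yy1 had 15.9 and 30.5 normalised CPM in cKO 2 and cKO 5, against 21.0 and 24.2 in control 1 and control 6. None of the 3 separated the labels. Gabpb2, a partner subunit of the GA-binding protein, had 12.2 and 20.7 normalised CPM in cKO 2 and cKO 5, against 25.3 and 27.6 in control 1 and control 6 (-0.68 ± 0.43, unadjusted p = 0.183). Pprc1, a coactivator of the PGC-1 family, had 32.2 and 43.5 normalised CPM in cKO 2 and cKO 5, against 45.0 and 60.2 in control 1 and control 6 (-0.47 ± 0.35). In these 2 genes both cKO libraries lay below both controls without passing the test, beside 7.64% of all genes tested. They are shown because they had the smallest p of the 10. The log2 fold changes of the 10 ran from -0.68 to 1.09, with 4 above 0 and 6 below.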

How the data were processed

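Bulk RNA-seq of 2 libraries labelled cKO and 2 labelled control was analysed from 4 deposited tables, each of 1 cKO and 1 control library. Per the submitters' processing notes, Bowtie2 2.2.3, TopHat2 2.0.12 and HTSeq 0.6.0 were used with mm9. The sources used here do not give their settings or the strand of the reads. Gene positions in the tables nevertheless matched GRCm38 (90.3% identical of 21922, and 99.2% with starts within 5000 bp), so GRCm38 is named. The deposited tables hold raw read counts per gene and, per the file headers, normalised values that equal CPM, with a count of 0 given 0.5 reads by the authors. The deposited fold divides the cKO value by the control value as a ratio, and the deposited log2 column is its logarithm. The deposited p-value comes from a test the sources used here do not give, and the authors' calls coincide with an absolute log2 of 1 or more and p under 0.05.

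Counts were joined by Ensembl ID and compared with edgeR 4.0.16 in R 4.3.3 (quasi-likelihood test, two-sided, TMM factors of 1.15, 0.919, 1.03 and 0.917 for cKO 2, cKO 5, control 1 and control 6, filterByExpr with a minimum count of 10, Benjamini-Hochberg over 15951 genes, 2 residual degrees of freedom). The code was tested on simulated data. DESeq2 1.42.0 and limma 3.58.1 were alternatives, as were library totals alone, median-of-ratios factors, no filter and leaving out each library. Normalised CPM is CPM over the TMM factor, and log2 deviations use a pseudocount of 0.5. Libraries were called separated when both of a label lay above or below both of the other; an exact permutation of 2 against 2 cannot reach 0.05. Near-identical copies, or close matches, were stretches found in annotated transcripts of other genes with blastn 2.17.0 (at least 95% identity over 50 bp). Genes that overlap a member at its own locus were not left out of this search. Lengths are from GENCODE. The named-gene rule took members with special roles, the 5 smallest p in each direction, the 3 highest and lowest levels, the 3 largest and smallest ranges and the 2 smallest p of each other list; genes named outside it (the other genes whose libraries separated, Mrpl16, Mrpl46, Mrps11, mt-Rnr2, Gabpa, Nrf1, Yy1 and the neighbours of members) were chosen after their values were seen. A gene that the rule named is not reported here. Members and lists were chosen with earlier results of these data known.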

Additional observations from a re-analysis of the deposited data

How the results depend on the processing

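No member and no gene passed an adjusted p of 0.05 under any of the 9 alternatives. The median log2 fold change of members ran from -0.015 to 0.25 when each library was left out in turn, with the extremes without control 1 and without control 6, and was 0.22 with library totals alone. The count of members above both controls was 25 with library totals alone (beside 9.31% of all genes). With a library left out it ran from 17 without control 1 to 43 without control 6. The share of all genes above ran from 20.2% without control 6 to 39.3% without cKO 5. The count below was 1 with library totals alone (beside 6.57%). With a library left out it ran from 5 without control 6 to 22 without control 1. The share of all genes below ran from 21.3% without control 6 to 36.3% without cKO 5.

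Of the 25 tested members that the named-gene rule took, 12 changed the sign of their log2 fold change under an alternative. Members named outside the rule were not counted. With each library left out in turn the values ran from -0.14 to 0.38 for Mrps18a, from -1.26 to 0.39 for Mrps18b, from -0.15 to 0.45 for Mrps18c, from -0.11 to 0.44 for Mrpl12, from -0.037 to 0.29 for Mrps12, from -0.79 to 0.34 for Mrps36, from -0.13 to 1.03 for Mrpl58, from -0.40 to 0.25 for Mrpl36, from -0.10 to 0.45 for Mrps15, from -0.29 to 1.34 for Mrpl22, from -0.80 to 0.92 for Mrpl57 and from -0.074 to 0.10 for Mrpl17. Mrpl36 was 0.012 with library totals alone. Among genes that are not members, they ran from -0.46 to 0.45 for Bach1, from -1.96 to 0.17 for Csf1r, from -1.42 to 2.35 for Neurod6, from -0.83 to 2.43 for Tubb3, from -2.46 to 0.89 for Cldn5 and from -2.90 to 1.01 for Rgs5. The cause was not tested.

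No paired analysis was possible because the labels give the 2 genotypes no shared replicate number. Members had a median of 25.2 to 33.6 normalised CPM per library. Depth limited Mrps34, Mrps18b, Mrps36 and Mrpl20, which had under 60 reads in each library. Where a library is left out, its label has 1 library, assumed to vary like the other label.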

Other observations

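Genes that start head to head with a member were read in the same libraries, and each was chosen after its values were seen. Ncapd2, a condensin subunit gene whose start lies 100 bp from that of Mrpl51, had 168.0 and 115.8 normalised CPM in cKO 2 and cKO 5, against 106.2 and 101.1 in control 1 and control 6 (log2 fold change 0.45 ± 0.34 SE). Mrpl51 had 61.6 and 47.8 normalised CPM in cKO 2 and cKO 5, against 42.5 and 45.9 in control 1 and control 6, so both genes of this pair were higher in both cKO libraries. Cyb5rl, 120 bp from Mrpl37, had 5.24 and 6.42 normalised CPM in cKO 2 and cKO 5, against 10.8 and 13.4 in control 1 and control 6 (-1.05 ± 0.50, unadjusted p = 0.0964 in edgeR), while Mrpl37 overlapped between labels. Ndufs6, a subunit of respiratory complex I and 29 bp from Mrpl36, had 6.70 and 5.58 normalised CPM in cKO 2 and cKO 5, against 3.54 and 4.87 in control 1 and control 6 (0.54 ± 0.59), while Mrpl36 overlapped. That distance is from the outermost annotated start of Mrpl36, at 73328513. Its RefSeq promoter window lies farther off, at chr13:73330759-73331058, so the pair depends on which start is taken. Twnk, the mitochondrial DNA helicase and 779 bp from Mrpl43, had 39.6 and 21.5 normalised CPM in cKO 2 and cKO 5, against 40.4 and 33.1 in control 1 and control 6. Mrpl43 had 47.0 and 75.3 normalised CPM in cKO 2 and cKO 5, against 74.0 and 60.0 in control 1 and control 6, so that cKO 5 was the lowest library for Twnk and the highest for Mrpl43. Of the Mrpl43 exon length, 33.4% overlaps Twnk, so reads of these genes may be shared or left uncounted. Transcripts of other genes closely match 41.1% of the Mrpl43 transcript, in a search that did not leave out Twnk.

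Processed pseudogenes named for members were counted separately from them. Mrpl23-ps1 had 60 and 68 reads in cKO 2 and cKO 5, against 50 and 65 in control 1 and control 6. Mrpl48-ps had 64 and 22 reads in cKO 2 and cKO 5, against 50 and 46 in control 1 and control 6. Mrps36-ps1 had 3 and 4 reads in cKO 2 and cKO 5, against 1 and 4 in control 1 and control 6.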
